A study of Mus musculus with 9 samples.

Results

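The collagen genes were taken as every gene name in the count tables made of Col, a type number, the letter a and a chain number. Of 42454 names listed, 44 met this pattern, and 37 of them passed the filter on low counts that left 18243 names for testing. They were grouped as fibrillar collagens (types I, II, III, V and XI, 9 genes), collagen IV of basement membranes (6 genes), collagen VI (6 genes) and all others (23 genes). Bulk RNA sequencing had been done on tumours of MC38, a mouse colorectal carcinoma line, implanted in C57BL/6J mice and taken at day 21. The 5 CD43-KO tumours grew from MC38 cells with a knockout of CD43, the sialylated membrane glycoprotein encoded by Spn, and the 4 Vec tumours grew from MC38 cells given the vector. Both groups had hosts of that strain, and the labels name no further treatment and do not say whether the knockout line was a single clone. The series title frames CD43 as a target that shapes antitumour immunity.

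Collagens are extracellular proteins in which 3 chains wind around each other as a triple helix. The helix needs glycine at the head of each triplet of residues, the smallest residue being the only one that fits its axis. Fibrillar collagens assemble into the load-bearing fibrils of stroma, collagen IV forms the sheet of basement membranes, and collagen VI forms beaded microfilaments around cells. In tumours, fibroblasts are the main source of fibrillar collagens, while endothelial cells and pericytes also make collagen IV. The values are levels in whole tumour tissue, so fewer cells of a type and less RNA per cell cannot be told apart.

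The glycine pattern can be read in the coding sequence of the members. In the lines below, stretches of 54 bases from the annotated coding sequence on GRCm38 are given 5′ to 3′ with glycine codons in capitals, to show how a fibrillar, a microfilament and a basement membrane chain differ.
Col1a1 codons 168 to 185: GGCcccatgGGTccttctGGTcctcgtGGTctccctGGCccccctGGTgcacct
Col3a1 codons 164 to 181: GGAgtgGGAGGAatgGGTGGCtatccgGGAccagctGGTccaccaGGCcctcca
Col6a1 codons 256 to 273: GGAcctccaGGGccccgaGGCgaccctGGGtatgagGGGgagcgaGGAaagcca
Col4a1 codons 154 to 171: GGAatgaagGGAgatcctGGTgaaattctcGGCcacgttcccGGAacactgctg

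In the Col1a1, Col3a1 and Col6a1 stretches a glycine codon heads every triplet, and in the Col4a1 stretch the later glycine codons stand further apart, an interruption of the repeat. The longest unbroken run of such triplets was 338 in Col1a1, 339 in Col1a2 and 344 in Col3a1. It was 87 in both Col6a1 and Col6a2, 45 in Col6a3, 40 in Col4a1 and 66 in Col4a2.

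Total counts were 44814061 to 62194418 in CD43-KO libraries and 60751738 to 72114385 in Vec libraries. Spn itself was at 25.6, 33.6, 31.2, 22.97 and 6.81 CPM (counts relative to the library's total after scaling by the trimmed mean of M values, TMM) in CD43-KO tumours 1 to 5, against 41.0, 43.7, 44.6 and 53.8 CPM in Vec tumours 1 to 4. All CD43-KO tumours lay below all Vec tumours, with a log2 fold change of -0.93 ± 0.36 (SE, as for every fold change here; edgeR adjusted p = 0.28; two-sided exact permutation p = 0.00794, the smallest that the splits of 9 tumours into 5 and 4 allow). Leukocytes of the host also transcribe Spn, and the summed level of 6 leukocyte markers was 404 to 1291 CPM in CD43-KO and 396 to 533.99 CPM in Vec tumours. Of the defining markers of carcinoma epithelium, Krt8 and Krt18 were at most 0.203 CPM in any tumour, and Epcam was 0.22 to 1.21 CPM in CD43-KO and 0.238 to 1.41 CPM in Vec tumours. Krt7 and Krt19 were at most 0.961 CPM, and Cdh1 was 6.42 to 14.8 CPM in CD43-KO and 7.96 to 13.6 CPM in Vec tumours. The leading principal component held 34.9% of the variance. Along it CD43-KO tumour 2 was at 51.2, and all libraries but CD43-KO tumours 2 and 3 lay between -45.6 and 2.13. CD43-KO tumour 3 lay farthest out, at 100. Its 10 skeletal muscle markers summed to 1447 CPM, against at most 149.5 CPM in the other CD43-KO tumours and 102 to 127 CPM in Vec tumours, and its 8 fat markers to 760.0 CPM, against at most 52.5 CPM and 50.2 to 77.6 CPM. It was also the shallowest library. For the 14 collagen genes that the selection rule given below shows in every tumour, values without it are given where it moved the log2 fold change by over 1.5 times. Col17a1, added later, is not among the 14.

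No collagen gene passed the test that served as the primary one. With edgeR's quasi-likelihood test and Benjamini-Hochberg adjustment over all 18243 names, 0 of 37 collagen genes had an adjusted p under 0.05 in either direction, as did 0% of all names. At an unadjusted p under 0.05, 2 collagen genes were higher (Col13a1 and Col6a5) and 3 were lower (Col6a1, Col6a2 and Col4a5) in CD43-KO tumours, together 5 of 37, against 15.4% of all names (7.75% higher and 7.63% lower). DESeq2 gave an adjusted p to 34 of the 37 and called 1 higher (Col6a5), against 1.48% of all names, and 2 lower (Col6a1 and Col6a2), against 2.18%. With voom weights in limma, 0 collagen genes were called higher (0.904% of all names) and the same pair, Col6a1 and Col6a2, was called lower (1.82%, with 2.72% called in either direction). The groups did not overlap for 2 collagen genes, Col6a1 and Col4a5, both lower in CD43-KO tumours, where 3.5% of all names were lower without overlap. None was higher without overlap (2.08% of all names), and 5.59% of all names had no overlap in either direction. The log2 fold change was above 0 for 24 of the 37 collagen genes tested and for 54.0% of all names, and its median was 0.32 over the collagen genes and 0.03 over all names.

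**Figure D1:**
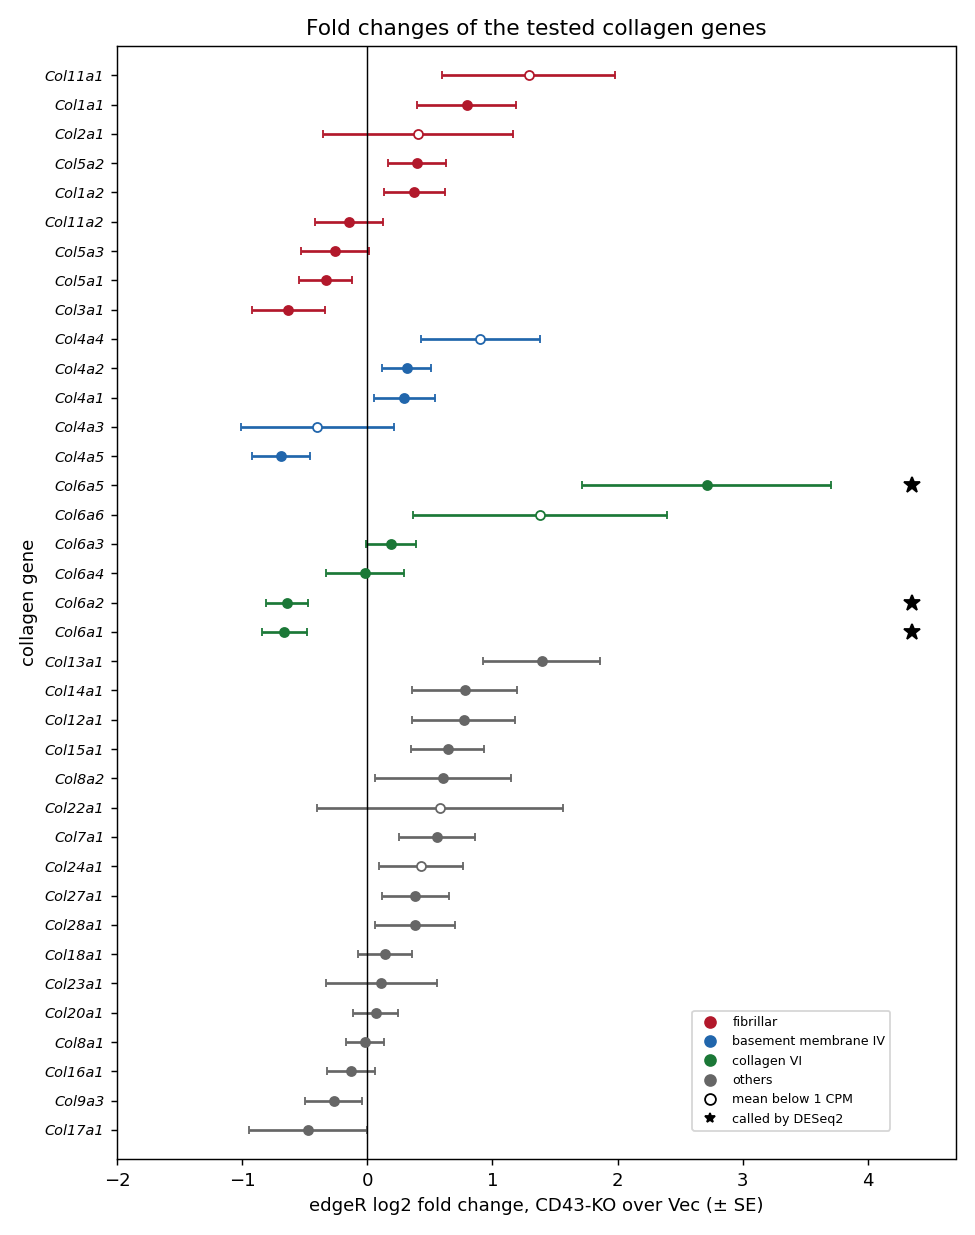
Log2 fold change (CD43-KO over Vec, edgeR) of the 37 tested collagen genes with its standard error, in the order fibrillar, collagen IV, collagen VI and others, each sorted by value. Open circles are genes with a mean below 1 CPM and stars mark the 3 genes DESeq2 called: Col6a5 at 2.71, and Col6a2 and Col6a1 at -0.64 and -0.66.

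Collagen genes together took 0.455% to 0.848% of all counts of a library. Their summed level was 5864, 8134, 4740, 4870 and 4421 CPM in CD43-KO tumours 1 to 5 and 6910, 6679, 4989 and 5297 CPM in Vec tumours 1 to 4. The groups overlapped, and CD43-KO tumour 2 had the highest sum while CD43-KO tumour 5 had the lowest. The 9 fibrillar genes made up 50.5% to 69.7% of the summed collagen CPM in CD43-KO tumours and 59.7% to 66.8% in Vec tumours. The 6 collagen VI genes made up 14.6% to 27.03% in CD43-KO and 20.6% to 23.1% in Vec tumours, collagen IV 5.98% to 8.56% and 4.09% to 7.24%, and the others 8.36% to 14.8% and 8.20% to 10.8%. The 8 genes with the highest mean CPM, Col3a1, Col1a2, Col1a1, Col6a3, Col6a1, Col6a2, Col4a1 and Col5a1, held between 74.8% and 84.8% of it in every tumour. Per kilobase of transcript and ordered by the mean of all 9 tumours, Col3a1 averaged 252 CPM in CD43-KO and 390 CPM in Vec tumours, followed by Col1a2 at 171 and 132 CPM. Next came Col1a1 at 119.6 CPM per kilobase in CD43-KO and 69.0 CPM in Vec tumours, and Col6a1 at 75.5 and 119.6 CPM. On these means Col6a1 lay below Col1a1 in CD43-KO and above it in Vec tumours. CD43-KO tumours 1 and 2, at 890.4 and 1408 CPM, raised the Col1a1 mean, the others being at 327.1 to 483.2 CPM. The order did not hold in every CD43-KO tumour. In tumour 5 Col6a1 was at 334.5 and Col1a1 at 327.1 CPM before division by length, and Col6a1 has the shorter transcript.

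**Figure D2:**
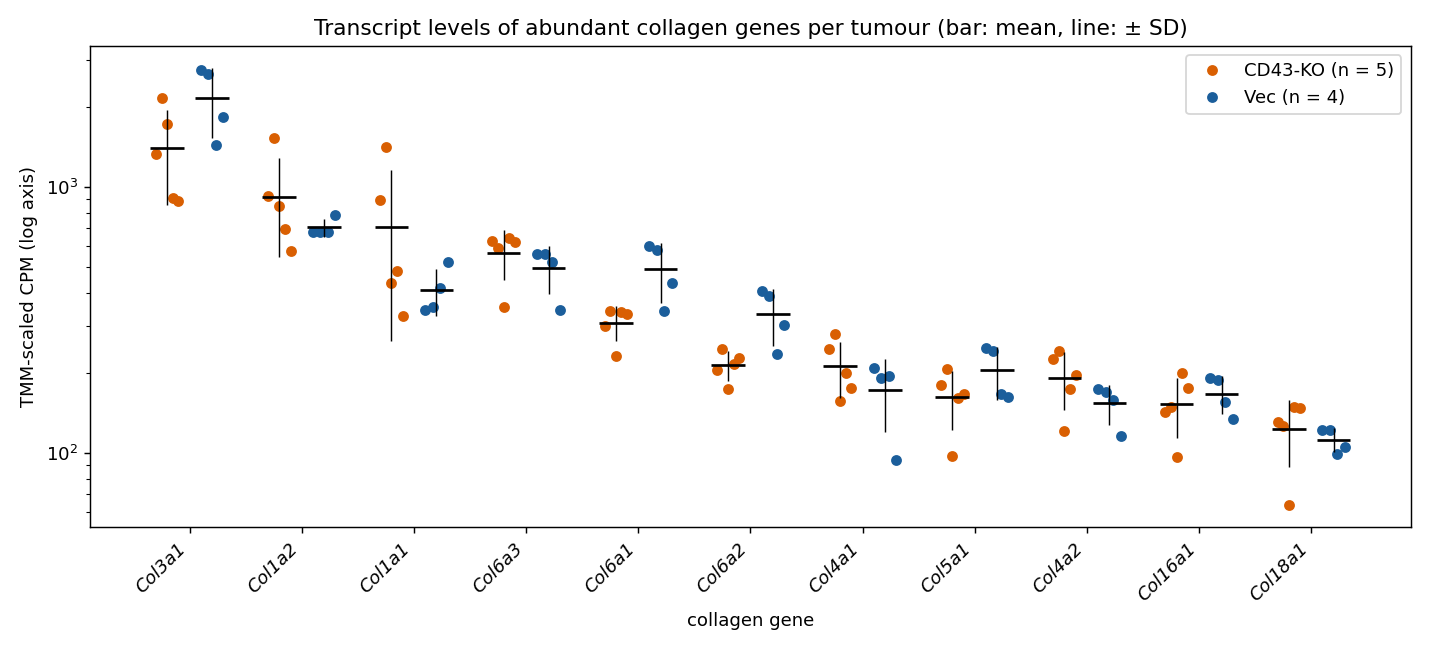
TMM-scaled CPM (log axis) of 11 collagen genes in each tumour, namely the 8 with the highest mean CPM and the 2 most abundant of each group, with CD43-KO points left of Vec points, a bar at the mean and a line for the SD. Col6a1 is the one pair of clouds without overlap, with the highest CD43-KO tumour at 341.2 and the lowest Vec tumour at 341.8.

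Among the fibrillar collagens, the type III chain and the type I chains stood differently in CD43-KO and in Vec tumours relative to each other, though no single chain passed the test. Col3a1 (chr1:45311538-45349706, plus strand, GRCm38), whose product forms the homotrimer of pliable fibrils, had 1332, 2154, 1721, 906 and 888 CPM in CD43-KO tumours 1 to 5, against 2749, 2651, 1434 and 1835 CPM in Vec tumours 1 to 4. The 2 highest values were those of Vec tumours 1 and 2 and the 2 lowest those of CD43-KO tumours 4 and 5, and the groups overlapped through Vec tumours 3 and 4. Its log2 fold change was -0.63 ± 0.29 (edgeR adjusted p = 0.34; DESeq2 adjusted p = 0.19). Without 1 tumour each it ran from -0.84 (CD43-KO tumour 2; edgeR adjusted p = 0.39) to -0.50 (CD43-KO tumour 5; edgeR adjusted p = 0.44).

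Col1a1 (chr11:94936224-94953042, plus strand), which encodes the more numerous chain of the type I trimer, had 890.4, 1408, 437, 483 and 327 CPM in CD43-KO tumours 1 to 5, against 345, 353, 417 and 521 CPM in Vec tumours 1 to 4. CD43-KO tumours 1 and 2 lay above every other tumour, and the other 3 CD43-KO tumours lay among or below the Vec values. The mean was 709 ± 445 CPM in CD43-KO and 409 ± 81.5 CPM in Vec tumours (SD, n = 5 and 4), and the log2 fold change was 0.79 ± 0.40 (edgeR adjusted p = 0.36). It dropped to 0.39 without CD43-KO tumour 2 (edgeR adjusted p = 0.60). Col1a2 (chr6:4505618-4541543, plus strand), the partner chain of type I, had 928, 1524, 849, 694 and 572.5 CPM in CD43-KO tumours 1 to 5, against 676, 677, 680.0 and 786 CPM in Vec tumours 1 to 4. CD43-KO tumour 2 was again the highest, and the Vec tumours spanned a far narrower range than the CD43-KO tumours (log2 fold change 0.38 ± 0.24; edgeR adjusted p = 0.47). Without CD43-KO tumour 2 the log2 fold change was 0.11 (edgeR adjusted p = 0.78).

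The ratio of Col3a1 to Col1a1, with counts divided by transcript length, is free of library scaling. It was 1.59, 1.63, 4.19, 1.998 and 2.89 in CD43-KO tumours 1 to 5, against 8.49, 8.01, 3.67 and 3.75 in Vec tumours 1 to 4. Only CD43-KO tumour 3 reached the range of the Vec tumours. The corresponding ratio of Col1a2 to Col1a1 was 1.16 to 2.15 in CD43-KO and 1.67 to 2.17 in Vec tumours, so the type I chains kept closer to each other. On log2 CPM over the 9 tumours, Pearson's r between Col1a1 and Col1a2 was 0.94 (0.71 without the 2 tumours farthest from the median), a description over tumours of both groups. Within the CD43-KO tumours Col3a1 was highest in tumour 2 and lowest in tumours 4 and 5, as was Col1a2, while among Vec tumours the highest Col3a1 value was in tumour 1 and the highest Col1a1 and Col1a2 values in tumour 4.

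**Figure D3:**
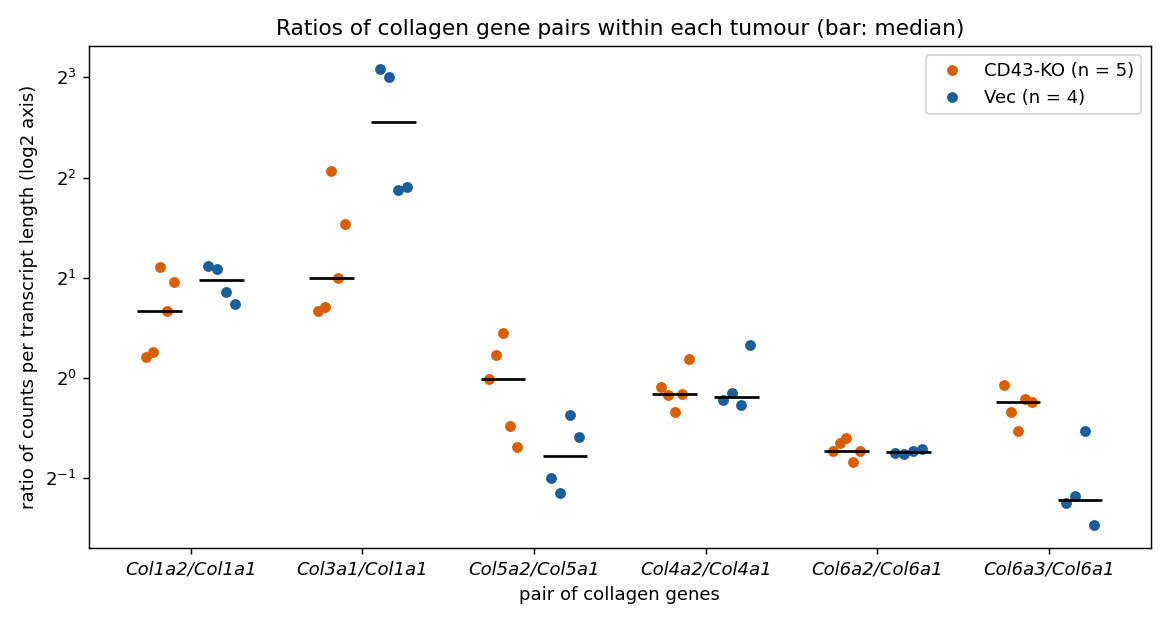
Ratio of counts per transcript length of 6 pairs of collagen genes in each tumour (log2 axis), with CD43-KO points left of Vec points and a bar at the median. The Col3a1 to Col1a1 ratio has a median of 1.998 in CD43-KO and 5.88 in Vec tumours, the Col6a3 to Col6a1 ratio a median of 0.847 and 0.432, and the Col6a2 to Col6a1 ratio hardly varies.

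The chains of collagen V, which sits inside type I fibrils and limits their diameter, did not follow a single course. Col5a1 had 180.1, 208, 97.8, 161 and 167 CPM in CD43-KO tumours 1 to 5, against 248, 241, 168 and 163 CPM in Vec tumours 1 to 4. CD43-KO tumour 3 was lowest and the groups overlapped (log2 fold change -0.33 ± 0.21; edgeR adjusted p = 0.46; -0.20 without CD43-KO tumour 3). Col5a3 ranged from 80.0 to 224 CPM in CD43-KO and from 143 to 233 CPM in Vec tumours (log2 fold change -0.26). Col5a2 ranged from 81.5 to 192 CPM and from 85.3 to 102.5 CPM (log2 fold change 0.40), and its highest value was again that of CD43-KO tumour 2. Col5a2 lies 24624 bases from Col3a1 on chromosome 1, on the opposite strand. Both genes had the highest of their CD43-KO values in tumour 2 and the lowest in tumour 5, as did Col1a2 on chromosome 6. Over the 9 tumours, Pearson's r on log2 CPM between Col3a1 and Col5a2 was only 0.21. It was -0.22 without the 2 tumours farthest from the median.

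The cartilage fibrillar collagens were scarce. Col2a1 was 0.199 to 0.997 CPM in CD43-KO and 0.0316 to 0.563 CPM in Vec tumours, Col11a1 was 0.221 to 2.34 CPM and 0.221 to 0.761 CPM, and neither passed a test. All 8 markers of cartilage and bone together reached 0.139 to 0.418 CPM in CD43-KO and 0.164 to 0.379 CPM in Vec tumours, and 0 of them passed the filter. Col11a2, at 1.77 to 3.46 CPM in CD43-KO and 1.66 to 3.79 CPM in Vec tumours, is uncertain, since 3 more names with a copy suffix stand for it in the tables and one of them has 1413 counts in all beside 1468 for Col11a2. Of the 9 fibrillar genes, 0 passed the edgeR test, and the log2 fold change was positive in 5 and negative in 4 (median 0.38). The 10 fibroblast markers summed to 531, 792.5, 1226.5, 365 and 400.2 CPM in CD43-KO tumours 1 to 5 and to 579 to 705 CPM in Vec tumours, and their part in the fibrillar levels was not tested.

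Of the 5 collagen IV genes tested, 0 passed the edgeR test, and the log2 fold change was positive in 3 and negative in 2. Col4a1 and Col4a2 encode the chains of the widespread basement membrane trimer and run in opposite directions on chromosome 8 from starts that overlap in the annotation. Col4a1 had 247, 279.9, 157, 199.6 and 176 CPM in CD43-KO tumours 1 to 5, against 209, 192, 196 and 94.1 CPM in Vec tumours 1 to 4. Col4a2 had 226, 242, 122, 174 and 196 CPM in CD43-KO tumours 1 to 5, against 175, 169, 158 and 116 CPM in Vec tumours 1 to 4. CD43-KO tumours 1 and 2 were highest for both genes, Vec tumour 4 was lowest for both, and the groups overlapped. The log2 fold changes were 0.30 ± 0.24 for Col4a1 and 0.32 ± 0.20 for Col4a2 (edgeR adjusted p = 0.57 and 0.45). Without Vec tumour 4 they were 0.08 and 0.19, and without CD43-KO tumour 2 that of Col4a1 was 0.17. Their ratio per length stayed between 0.792 and 1.14 in CD43-KO and between 0.828 and 1.26 in Vec tumours, close to equal levels. The 8 endothelial markers summed to 139, 172, 136, 80.2 and 107 CPM in CD43-KO tumours and to 100.4 to 116 CPM in Vec tumours, and their part in these levels was not tested.

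Col4a5, a chain of the minor networks known from the kidney glomerulus and lung, was the other collagen gene without overlap between groups. It had 4.54, 4.61, 2.83, 5.87 and 6.00 CPM in CD43-KO tumours 1 to 5, against 9.93, 7.60, 6.93 and 6.36 CPM in Vec tumours 1 to 4. The gap between the highest CD43-KO and the lowest Vec tumour was narrow beside the range of either group. The log2 fold change was -0.69 ± 0.23 (edgeR adjusted p = 0.25; DESeq2 adjusted p = 0.0747; voom adjusted p = 0.0510). DESeq2 put it under 0.05 when CD43-KO tumour 3, 4 or 5 was left out (adjusted p = 0.0468, 0.0342 and 0.0499), but not without any other single tumour. Without Vec tumour 1 the log2 fold change was -0.55 (edgeR adjusted p = 0.46). Its usual partners Col4a3 and Col4a4 were at most 0.418 and 0.952 CPM in any tumour. Their log2 fold changes were -0.40 ± 0.61 and 0.90 ± 0.48, so Col4a4 did not share the direction of Col4a5. Col4a6, which shares a bidirectional start region with Col4a5 on the X chromosome, had 5 counts in all 9 libraries.

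Collagen VI held the pair with the lowest edgeR p-values of the 37 collagen genes tested. The widespread heterotrimer combines the products of Col6a1, Col6a2 and Col6a3. Col6a1 (chr10:76708792-76726044, minus strand) had 299.6, 341.2, 232, 340.1 and 334 CPM in CD43-KO tumours 1 to 5, against 602, 580.5, 341.8 and 436 CPM in Vec tumours 1 to 4. Col6a2 (chr10:76595756-76623630, minus strand) had 205, 247, 174, 216 and 229 CPM in CD43-KO tumours 1 to 5, against 408, 391, 235 and 303 CPM in Vec tumours 1 to 4. For both genes CD43-KO tumour 3 was lowest and Vec tumours 1 and 2 were highest. CD43-KO tumour 2 and Vec tumour 3 met in the middle, with a gap of less than 1 CPM for Col6a1 and an overlap for Col6a2.

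The means were 309.5 ± 46.6 CPM in CD43-KO and 490.3 ± 123 CPM in Vec tumours for Col6a1, and 214 ± 27.4 and 334 ± 80.5 CPM for Col6a2 (SD, n = 5 and 4). The log2 fold changes were -0.66 ± 0.18 for Col6a1 and -0.64 ± 0.16 for Col6a2, with the edgeR adjusted p at 0.19 for both. DESeq2 gave -0.67 and -0.65 with adjusted p of 0.0223 and 0.0164, and voom gave -0.74 and -0.71 with an adjusted p of 0.0375 for both. The exact permutation p was 0.00794 for Col6a1 and 0.0159 for Col6a2, and 0.22 and 0.27 after adjustment over all names tested. Both DESeq2 calls were lost without Vec tumour 1 (adjusted p = 0.144 for Col6a1 and 0.12 for Col6a2), Vec tumour 2 (0.123 and 0.105) or CD43-KO tumour 1 (0.0936 and 0.0801). Without CD43-KO tumour 2, Col6a2 kept its call (0.0272) and Col6a1 lost it (0.0534). Both kept their calls without CD43-KO tumour 3 (0.0195 and 0.0181), 4 or 5 and without Vec tumour 3 or 4. The log2 fold change of the pair stayed below 0 in every fit that left out a tumour, between -0.81 and -0.56 for Col6a1 and between -0.79 and -0.54 for Col6a2 with edgeR.

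Col6a3 (chr1:90766860-90844001, minus strand), which encodes the long chain of the trimer and the C-terminal fragment endotrophin, stood higher relative to Col6a1 in CD43-KO tumours than in 3 of the 4 Vec tumours. It had 626, 591, 353, 644 and 622 CPM in CD43-KO tumours 1 to 5, against 559, 562, 522 and 346 CPM in Vec tumours 1 to 4. CD43-KO tumour 3 and Vec tumour 4 were low and the other 7 tumours lay close together (log2 fold change 0.19 ± 0.20; edgeR adjusted p = 0.66). The log2 fold change was 0.05 without Vec tumour 4 and 0.32 without CD43-KO tumour 3. Divided by transcript length, the ratio of Col6a3 to Col6a1 was 0.952, 0.789, 0.694, 0.862 and 0.847 in CD43-KO tumours 1 to 5, against 0.422, 0.441, 0.695 and 0.361 in Vec tumours 1 to 4. Vec tumour 3 lay at the level of CD43-KO tumour 3, and the other Vec tumours lay below every CD43-KO tumour. The ratio of Col6a2 to Col6a1 stayed between 0.558 and 0.660 in CD43-KO and between 0.593 and 0.612 in Vec tumours. Over the 9 tumours, r on log2 CPM was 0.99 for Col6a1 with Col6a2, and Spearman's rho was 0.97. All 3 chains were lowest among CD43-KO tumours in tumour 3.

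**Figure D4:**
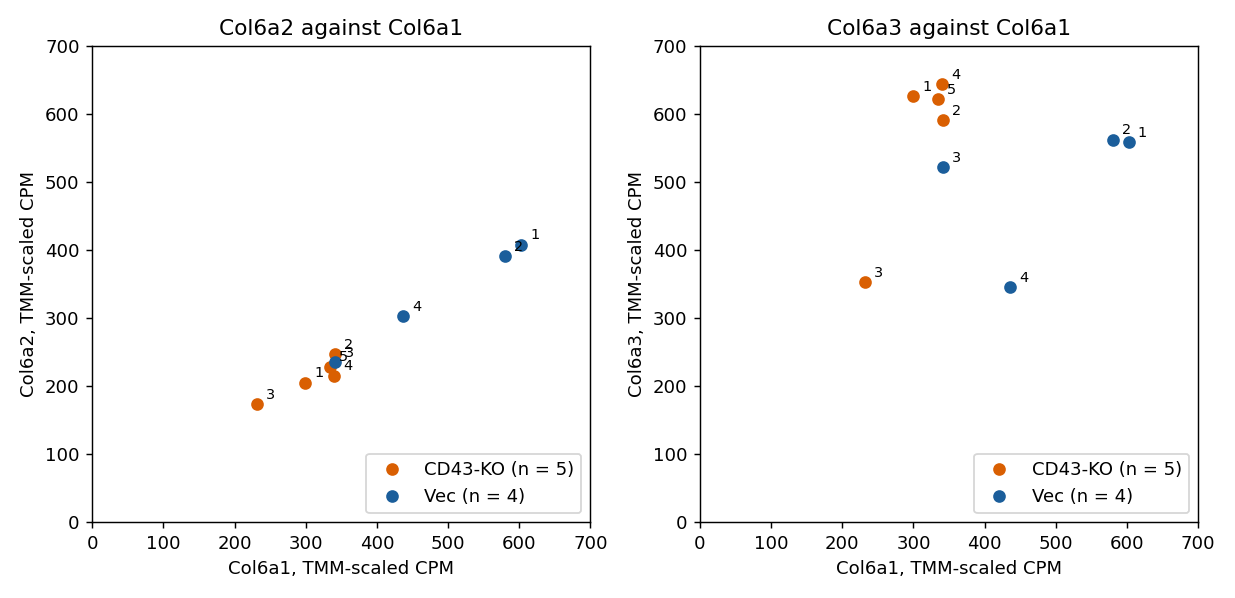
TMM-scaled CPM of Col6a2 (left) and Col6a3 (right) against Col6a1, one point per tumour with its replicate number, CD43-KO in orange and Vec in blue. Col6a2 follows Col6a1 along one line, while Col6a3 is at 591 to 644 in 4 CD43-KO tumours whose Col6a1 is at 299.6 to 341.2, and at 559 and 562 in the Vec tumours whose Col6a1 is at 602 and 580.5.

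Col6a2 and Col6a1 are neighbours on chromosome 10, 85161 bases apart on the same strand, and Col6a3 is on chromosome 1. Sequence upstream of their RefSeq starts (GRCm38.p6, gene strand, 5′ to 3′) is shown because the ratio of Col6a2 to Col6a1 was nearly constant while that of Col6a3 to Col6a1 was not, with that of Col3a1 and Col1a2 for comparison. Bases inside a GENCODE exon or the RefSeq extent of the gene were left out, so the stretch ends at the base before the start in Col6a2 and Col3a1, and farther upstream in Col6a1, Col6a3 and Col1a2. RefSeq lists a second Col6a2 start, whose window also held GC boxes and is not printed because exons cover 226 of its 250 bases. Capitals mark a TATA box (TATAAA) or a GC box (GGGCGG, or CCGCCC on the other strand), and CCAAT boxes were searched as well, on both strands.
Col6a1, chr10:76726170-76726294, minus strand: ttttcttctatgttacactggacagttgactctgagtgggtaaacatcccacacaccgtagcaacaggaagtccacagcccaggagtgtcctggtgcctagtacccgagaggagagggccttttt
Col6a2, chr10:76623631-76623880, minus strand: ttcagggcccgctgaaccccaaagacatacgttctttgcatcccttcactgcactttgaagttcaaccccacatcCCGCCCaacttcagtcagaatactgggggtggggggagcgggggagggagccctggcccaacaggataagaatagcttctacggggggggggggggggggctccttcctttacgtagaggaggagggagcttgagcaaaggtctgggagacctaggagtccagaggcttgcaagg
Col6a3, chr1:90844097-90844221, minus strand: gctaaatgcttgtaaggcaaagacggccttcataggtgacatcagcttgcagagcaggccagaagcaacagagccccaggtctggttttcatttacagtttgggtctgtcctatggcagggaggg
Col3a1, chr1:45311288-45311537, plus strand: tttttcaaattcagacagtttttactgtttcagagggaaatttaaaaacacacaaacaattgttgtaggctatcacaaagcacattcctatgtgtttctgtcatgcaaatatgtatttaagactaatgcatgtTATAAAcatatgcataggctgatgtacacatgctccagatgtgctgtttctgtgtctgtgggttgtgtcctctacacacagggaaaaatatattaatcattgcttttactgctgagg
Col1a2, chr6:4505368-4505492, plus strand: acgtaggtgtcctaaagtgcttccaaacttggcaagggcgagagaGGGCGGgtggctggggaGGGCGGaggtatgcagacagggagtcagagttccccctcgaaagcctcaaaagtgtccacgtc

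The Col6a2 stretch held 1 GC box and the Col6a3 and Col6a1 stretches none of these motifs. The Col3a1 stretch held a TATA box and the Col1a2 stretch 2 GC boxes. Of 32851 RefSeq promoter windows cut to the 250 bases before the start, 32.7% held a GC box, 12.4% a TATA box and 33.8% a CCAAT box, and of those cut to the length and position of the shorter stretches 13.4%, 6.23% and 16.8%. A match describes the letters of the window only. RefSeq gave a promoter for 35 of the 44 genes.

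The remaining chains of collagen VI, which can take the place of the Col6a3 product in the trimer, are encoded side by side on chromosome 9. Col6a5 had 0.397, 2.50, 5.60, 0.238 and 0.406 CPM in CD43-KO tumours 1 to 5, against 0.0789, 0.313, 0.324 and 0.388 CPM in Vec tumours 1 to 4. CD43-KO tumours 2 and 3 stood above all others. CD43-KO tumours 1 and 5 lay just above the highest Vec value, and CD43-KO tumour 4 lay between Vec tumours 1 and 2. The log2 fold change was 2.71 ± 1.00 (edgeR adjusted p = 0.27; DESeq2 adjusted p = 0.0435; voom adjusted p = 0.27). Without CD43-KO tumour 3 the log2 fold change was 1.67 (edgeR adjusted p = 0.28), and DESeq2 then gave no adjusted p, as it did without CD43-KO tumour 2. CD43-KO tumour 3 is the one with muscle and fat markers far above the rest, and their part in Col6a5 was not tested. The DESeq2 call was also lost without any single Vec tumour (adjusted p = 0.0557 to 0.170). Col6a4 was 2.74 to 9.48 CPM in CD43-KO and 4.21 to 7.41 CPM in Vec tumours, and Col6a6 was at most 0.848 and 0.239 CPM. Of the 6 collagen VI genes, the log2 fold change was positive in 3 and negative in 3 (median 0.09).

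Of the 23 other collagen genes, 17 were tested, 0 passed the edgeR test, and the log2 fold change was positive in 13 (median 0.38). The most abundant by CPM were Col16a1, a fibril-associated chain, and Col18a1, the basement membrane proteoglycan that gives rise to endostatin. Col16a1 had 143, 149, 96.9, 200.6 and 175 CPM in CD43-KO tumours 1 to 5, against 192, 188, 155 and 134 CPM in Vec tumours 1 to 4, with overlap (log2 fold change -0.13 ± 0.19; edgeR adjusted p = 0.76). Without 1 tumour each it ran from -0.25 (CD43-KO tumour 4) to -0.01 (CD43-KO tumour 3). It is uncertain, because a second name for it holds 25928 counts in all beside 88450. Col18a1 had 131, 126.3, 63.8, 149 and 148 CPM in CD43-KO tumours 1 to 5, against 122.1, 122.2, 99.2 and 106 CPM in Vec tumours 1 to 4, and CD43-KO tumour 3 was again lowest (log2 fold change 0.14 ± 0.21; edgeR adjusted p = 0.77). Without 1 tumour each it ran from 0.07 (CD43-KO tumour 4) to 0.30 (CD43-KO tumour 3; edgeR adjusted p = 0.15).

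Col12a1 and Col15a1 were highest in CD43-KO tumours 1 and 2, and Col14a1 in tumours 2 and 3. Col12a1, whose product binds the surface of type I fibrils, was 105.1 and 118.9 CPM in CD43-KO tumours 1 and 2, 34.3 to 51.0 CPM in CD43-KO tumours 3 to 5 and 22.6 to 53.1 CPM in Vec tumours (log2 fold change 0.77 ± 0.41; edgeR adjusted p = 0.39). Col15a1, a proteoglycan of the basement membrane zone, was 51.2 and 73.4 CPM in those tumours, 25.1 to 34.8 CPM in CD43-KO tumours 3 to 5 and 23.04 to 32.8 CPM in Vec tumours (log2 fold change 0.64 ± 0.29; edgeR adjusted p = 0.33). DESeq2 called Col15a1 higher only in the fit without CD43-KO tumour 4. Col14a1, a second fibril-associated chain, was 10.1 to 44.1 CPM in CD43-KO and 9.503 to 17.8 CPM in Vec tumours, with its highest value in CD43-KO tumour 2 (log2 fold change 0.78). Over 9 tumours the r on log2 CPM with Col1a1 was 0.90 for Col12a1, 0.86 for Col15a1 and 0.80 for Col14a1. It was 0.57, -0.31 and 0.50 without the 2 tumours farthest from the median, and the 2 tumours left out were CD43-KO tumours 1 and 2.

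Col7a1, the anchoring fibril of the skin's basement membrane, was 62.4 to 186 CPM in CD43-KO and 48.7 to 101.6 CPM in Vec tumours, and CD43-KO tumour 4 was highest (log2 fold change 0.56 ± 0.30; edgeR adjusted p = 0.40). Without CD43-KO tumour 3 DESeq2 called it higher (adjusted p = 0.0334). Col8a1, a short-chain collagen of vessel walls and stroma, was 45.3 to 78.0 CPM in CD43-KO and 59.5 to 66.7 CPM in Vec tumours (log2 fold change -0.02 ± 0.15). Col8a2 was 0.627 to 4.83 CPM in CD43-KO and 0.931 to 1.94 CPM in Vec tumours.

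Among the transmembrane collagens, Col13a1, known for its part at cell adhesions and the neuromuscular junction, had 2.57, 2.39, 3.67, 0.868 and 1.17 CPM in CD43-KO tumours 1 to 5, against 0.647, 0.551, 1.42 and 0.610 CPM in Vec tumours 1 to 4. CD43-KO tumours 1 to 3 lay above every Vec tumour and the other 2 below the highest of them. The log2 fold change was 1.39 ± 0.47 (edgeR adjusted p = 0.25; DESeq2 adjusted p = 0.0705; voom adjusted p = 0.0833). Without CD43-KO tumour 3, the one with the high muscle markers, it was 1.10 (edgeR adjusted p = 0.21). DESeq2 put it under 0.05 without Vec tumour 3 (adjusted p = 0.00861), CD43-KO tumour 4 (0.0122) or CD43-KO tumour 5 (0.0491).

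Col17a1, the hemidesmosome collagen of basal keratinocytes, had 4.95, 1.12, 0.952, 1.52 and 2.33 CPM in CD43-KO tumours 1 to 5, against 2.71, 1.76, 3.44 and 4.21 CPM in Vec tumours 1 to 4. The basal keratinocyte keratin Krt5 was 31.8, 0, 0, 5.36 and 1.91 CPM in the same CD43-KO tumours, and 14.3, 0.0894, 24.4 and 45.8 CPM in the Vec tumours. CD43-KO tumour 1 and Vec tumour 4 had the most of both transcripts in their groups. All 6 epidermis markers summed to 298 to 537 CPM in CD43-KO and 342 to 899 CPM in Vec tumours. Most of this was Krt14, at 290.6 to 449.9 CPM in CD43-KO and 336.6 to 657.1 CPM in Vec tumours. Krt1, Lor and Dsg1a were at most 0.123 CPM in CD43-KO tumours 2 and 3 and Vec tumour 2. The part of these markers in the Col17a1 level was not tested. Col23a1, the remaining tested transmembrane member, was 0.372 to 1.97 CPM in CD43-KO and 0.676 to 1.55 CPM in Vec tumours.

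The scarcer members showed no call. Col27a1, a fibrillar-like chain, was 7.24 to 12.8 CPM in CD43-KO and 4.05 to 9.89 CPM in Vec tumours, and Col20a1 5.34 to 7.05 CPM and 4.69 to 7.45 CPM. Col9a3, 7.68% of whose exon bases are shared with Tcfl5 on the other strand, was 1.70 to 3.51 CPM in CD43-KO and 2.83 to 3.93 CPM in Vec tumours. Col28a1 was 1.55 to 2.62 CPM in CD43-KO and 1.14 to 2.87 CPM in Vec tumours, and DESeq2 called it higher only in the fit without Vec tumour 3 (adjusted p = 0.0422). Col24a1 and Col22a1 were below 1 CPM in every tumour. The 7 genes left out by the filter, Col4a6, Col9a1, Col9a2, Col10a1, Col19a1, Col25a1 and Col26a1, had at most 33 counts each over all 9 libraries, and Col9a1 had 0. A count of 0 in a library allows a level of up to 0.0423 to 0.0697 CPM (3 counts), which covers counting error only.

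How the collagen levels were spread over tumours was also compared with all genes. Here the percentages of all names are of the tested names at a mean of at least 1 CPM. Among the 30 tested collagen genes at a mean of at least 1 CPM, CD43-KO tumour 2 had the highest value for 10 (Col1a1, Col1a2, Col4a1, Col4a2, Col5a2, Col8a1, Col8a2, Col12a1, Col14a1 and Col15a1), while 6.47% of all names peaked there. Vec tumour 1 had the highest value for 7 (Col3a1, Col4a5, Col5a1, Col5a3, Col6a1, Col6a2 and Col11a2), against 8.78% of all names. CD43-KO tumour 3 had the lowest value for 11, against 22.6% of all names, and Vec tumour 4 for 7, against 20.2%. Col1a1, Col1a2, Col4a1 and Col4a2 thus peaked in a CD43-KO tumour, and Col3a1 and the Col6a1 and Col6a2 pair in a Vec tumour.

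**Figure D5:**
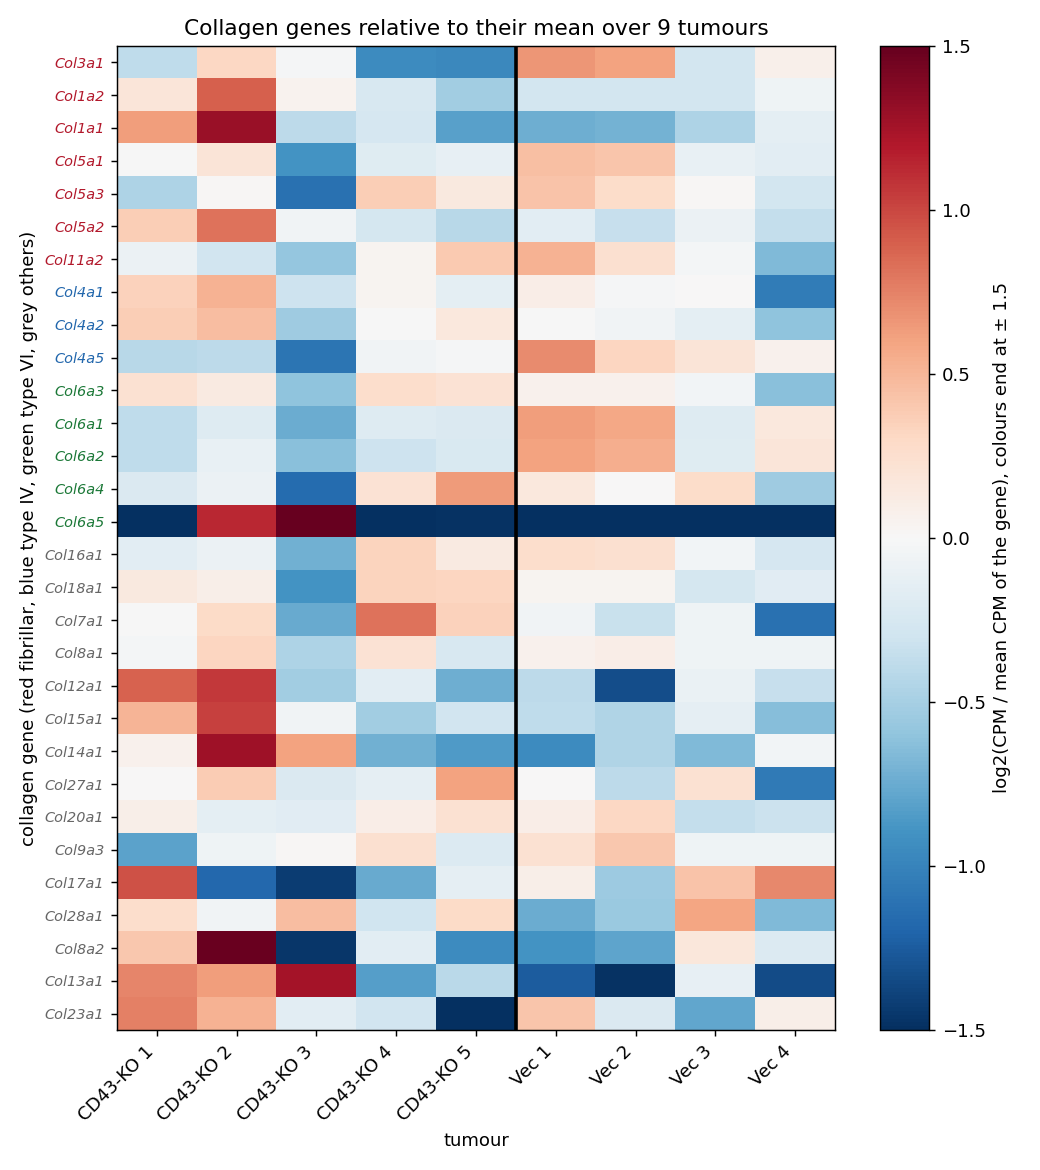
Log2 of CPM over the gene's mean of 9 tumours for the 30 tested collagen genes at a mean of at least 1 CPM (rows, name colours by group), with CD43-KO tumours 1 to 5 left of the line and Vec tumours 1 to 4 right of it. Col1a1, Col12a1, Col14a1 and Col15a1 are highest in CD43-KO tumour 2, Col3a1, Col6a1 and Col6a2 in Vec tumour 1, and Col6a5 leaves the colour range in most tumours.

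The genes most like selected members were found over the 11740 names at a mean of at least 5 CPM, by Pearson's r of log2 CPM over the 9 tumours. For Col1a1 they were Adam12, Col1a2, Palld, Dysf and Pycr1, with r between 0.92 and 0.94. For Col4a1 they were Ece1, Mark2, Rreb1, Pde4dip and Hhipl1 (0.93 to 0.96). For Col6a1, Col6a2 came first at 0.99, followed by Rasa3, Itgb5, Meak7 and Wdr35 (0.97 to 0.98). With 9 points that share depth and tissue makeup, such values rank genes and carry no test.

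Collagen chains need a large set of enzymes and chaperones before they leave the cell. Of 32 such genes, 31 were tested, 0 passed the edgeR test, 6 had an unadjusted p under 0.05 (15.4% of all names had), and the log2 fold change was positive in 11 and negative in 20 (median -0.10; positive in 54.0% of all names). DESeq2 called 3 of them lower: P3h4, a subunit of the lysyl hydroxylation complex, P4ha1, the catalytic chain of prolyl 4-hydroxylase, and P4hb, its partner. P3h4 had 79.9, 81.3, 78.5, 102.8 and 97.4 CPM in CD43-KO tumours 1 to 5, against 124, 120.5, 109 and 136 CPM in Vec tumours 1 to 4, with no overlap (log2 fold change -0.48 ± 0.11; edgeR adjusted p = 0.16; DESeq2 adjusted p = 0.0115). P4ha1 had 203, 161, 129, 199 and 222 CPM in CD43-KO tumours 1 to 5, against 285, 266, 229 and 273 CPM in Vec tumours 1 to 4, again with no overlap (log2 fold change -0.53 ± 0.15; edgeR adjusted p = 0.20; DESeq2 adjusted p = 0.0428). P4hb averaged 722 ± 42.2 CPM in CD43-KO and 927 ± 129 CPM in Vec tumours (SD, n = 5 and 4; log2 fold change -0.36 ± 0.11; edgeR adjusted p = 0.21; DESeq2 adjusted p = 0.0464). P4hb did not overlap either, with at most 767.6 CPM in CD43-KO and at least 818.8 CPM in Vec tumours. Plod3 was higher without overlap, at 125.3 to 140.5 CPM in CD43-KO and 115.1 to 124.1 CPM in Vec tumours (edgeR adjusted p = 0.29; DESeq2 adjusted p = 0.13). Of all names, 3.5% were lower and 2.08% were higher without overlap. The fits were run over all names, of which DESeq2 called 2.18% lower and 3.66% in either direction.

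Of 10 collagen receptors, 9 were tested and 0 passed the edgeR test, with a median log2 fold change of 0.14. DESeq2 called Itga1 higher (adjusted p = 0.0243; edgeR adjusted p = 0.20), the integrin subunit that binds collagen IV and type I. Itga1 had 10.3, 11.3, 14.9, 5.21 and 7.64 CPM in CD43-KO tumours 1 to 5, against 5.21, 4.74, 6.07 and 3.33 CPM in Vec tumours 1 to 4. CD43-KO tumours 1, 2, 3 and 5 lay above every Vec tumour, and CD43-KO tumour 4 lay among them. Of 14 genes for proteoglycans and matrix proteins of fibrils, 13 were tested and 0 passed either test. The log2 fold change was positive in 9 and negative in 4 (median 0.31), with the 2 most abundant among the negative ones. An unadjusted edgeR p under 0.05 was found for 4 of the 13, against 15.4% of all names. The most abundant, Bgn and Sparc, averaged 861 ± 151 and 745.5 ± 142 CPM in the CD43-KO group and 1097 ± 130 and 1051 ± 237.5 CPM in the Vec group (SD, n = 5 and 4; edgeR adjusted p = 0.30 and 0.27). All 15 basement membrane partners of collagen IV were tested and 0 passed either test, with positive log2 fold changes in 12 (median 0.32). The most abundant of these were Hspg2 at 511 ± 121 CPM in CD43-KO and 441 ± 120 CPM in Vec tumours and Lamb1 at 245 ± 66.5 and 242.5 ± 31.2 CPM.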

How the data were processed

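Total RNA of 9 tumours, 1 library per tumour of a tumour-bearing mouse, was extracted with TRIzol, and NEBNext Ultra kits were used for the libraries, as the labels' protocols state. The authors deposited whole-number counts per gene name for each library, without scaling. HISAT2 2.1.0, StringTie 1.3.5, DESeq2 and the build GRCm38 appear, without roles, in the submitters' processing notes. How reads were counted, and with which annotation and strand setting, is not given in the sources used here, so reads of genes that overlap on opposite strands cannot be told apart. Among the names, 2346 carry a copy suffix, and a collagen gene with such a second name is called uncertain. No 2 libraries agreed within sampling noise (over 36 pairs, chi-square was at least 36.3 for each degree of freedom).

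Counts were tested in R 4.3.3 with edgeR 4.0.16 (filterByExpr with a minimum count of 10 and a minimum total of 15, TMM scaling, robust quasi-likelihood F test, group as the only term), Benjamini-Hochberg adjustment over all 18243 names and a threshold of 0.05. DESeq2 1.42.0, which leaves some adjusted p empty, and limma 3.58.1 (voom with sample quality weights) were alternatives, as were other scalings, other filters and fits without each tumour. Exact permutation tests of CPM over all splits of the tumours were two-sided and adjusted over all names tested, not over the collagen genes as first planned. The procedure was tested on simulated counts with less spread between libraries than these tumours had. That run checks the code and cannot show how well the tests perform on these tumours. P-values set the difference between groups against the spread between tumours within them. They cannot separate the knockout from other differences between the implanted cells, such as those of a single clone.

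CPM are TMM-scaled, and the SE is the log2 fold change over the square root of F. The members and all lists were chosen with earlier results of these data known. Values in every tumour are given for the 8 most abundant collagen genes by CPM, the 2 most abundant of each group, those with an unadjusted edgeR p under 0.05 or a call by DESeq2 or voom, and those without overlap at a mean of at least 1 CPM. In each other list the members called by DESeq2, or else the 2 most abundant, are named. Genes outside this rule (Col5a2, Col5a3, Col12a1, Col14a1, Col15a1, Col17a1, Col7a1, Krt5 and other members given by range) were added after their values were seen. Gene coordinates and promoters are from RefSeq on GRCm38.p6, exons and coding sequence from GENCODE on GRCm38. The genes most like Col16a1 are not reported here.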

Additional observations from a re-analysis of the deposited data

Results flagged for a closer look

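Of 50 groups of values examined, 6 held a tumour far from the others of its group by Dixon's 95% criterion, and chance alone gives about 1 in 20. CD43-KO tumour 3 was the lowest of its group for Col6a3 (353.1 CPM, the others 590.8 to 644.0), for Col18a1 (63.81 CPM, the others 126.3 to 149.1) and for the summed level of collagen VI (767.5 CPM, the others 1137 to 1207). This is the tumour with 1447 CPM of summed skeletal muscle markers and 760.0 CPM of summed fat markers. Vec tumour 4 was the highest of its group for Col1a2 (785.8 CPM, the others 675.7 to 680.0) and the lowest for Col4a1 (94.14 CPM, the others 192.1 to 209.1). Vec tumour 3 was the highest of its group for Col13a1 (1.422 CPM, the others 0.5511 to 0.6472). Why these tumours stand apart was not tested.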

How the results depend on the processing

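The edgeR test called 0 collagen genes in either direction with each scaling and each filter tried and without each tumour in turn. DESeq2 called 1 higher and 2 lower and voom 2 lower. Leaving out a tumour from the DESeq2 fit, chosen after seeing the data, gave 0 to 3 collagen genes higher and 0 to 3 lower. Over all names, DESeq2 called 247 higher and 365 lower, voom 165 and 332, edgeR without a filter 1 lower, and edgeR without a tumour 0 to 8 higher and 0 to 21 lower, both highest without Vec tumour 3. The cause of these differences was not tested. Of 209 alternative values of the 14 collagen genes that the selection rule shows in every tumour, 0 reversed, 204 kept direction and side of the threshold, and 5 passed it (Col6a1 and Col6a2 with DESeq2 and voom, Col6a5 with DESeq2). The stricter filter dropped Col6a5. Scaling by total counts alone moved the median log2 fold change of all names to 0.11, and Col6a1 was then at -0.58 and Col6a2 at -0.56. The summed fibrillar level, CD43-KO minus Vec, was -301 CPM and ran from -850.3 to 8.31 CPM without 1 tumour each, while that of collagen VI was -229 CPM (-309 to -146 CPM). No paired analysis was possible because replicate numbers were given in order of deposition and link no tumours. With 5 and 4 tumours, and a common biological coefficient of variation of 0.313, small shifts could not be detected. Genes under 1 CPM rest on few counts, and an unstated counting step leaves copies and overlapping genes unresolved.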
